A study of Mus musculus with 15 samples.

Results

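Described here are 9 genes used as markers of endothelial cells, the cells that line blood vessels, in mRNA of mouse mammary epithelial cells. The genes are Cldn5, Aqp1, Pecam1, Cdh5, Kdr, Tek, Tie1, Flt1 and Eng. They were chosen as a sign of the cell mix, and every probe set whose single gene symbol in the platform annotation was one of them was taken. This gave 13 probe sets of the 22690 on the array, for 9 of 12393 genes with a symbol of their own. Flt1 has 3 probe sets, Cdh5 and Eng have 2 each, and the other 6 genes have 1.

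The study asked how inhibitors of DNA methylation and of histone deacetylation act on the mammary gland at different reproductive stages. All 15 arrays carry mRNA from epithelial cells purified by digestion from glands of female C57BL/6 mice, and no genetic change is named in the labels. Each mouse group had an intraperitoneal injection of 5-azacytidine (AzaC), which blocks DNA methylation, of valproic acid (VPA), which blocks histone deacetylases, or of PBS, the control, and doses are not given in the sources used here. Mice labelled pregnant (day 21) gave 3 AzaC, 3 VPA and 2 PBS arrays, and mice labelled virgin (9 weeks) gave 3 AzaC, 2 VPA and 2 PBS arrays. The labels do not say that replicates came from separate mice, so p-values measure only the spread between these samples, which may be technical. Values are the authors' processed signals, taken here to be on a log2 scale, so a difference of 1 is a doubling. With 2 or 3 arrays a group, precision is limited by their number.

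Endothelial cells are held together by adherens and tight junctions and sense growth factors through tyrosine kinase receptors on their surface. Vascular endothelial growth factors (VEGF) act through Kdr and Flt1, and angiopoietins act through Tek, with Tie1 as its partner receptor. In the mammary gland a capillary bed surrounds the epithelium and expands during pregnancy and lactation.

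The labelled stage and cell type were set against markers before the results. The milk protein genes Csn2, Wap, Lalba and Csn1s1 lay between 13.41 and 14.42 (log2) on all 15 arrays, those labelled virgin included. The mean of 7 milk protein genes was 13.98 to 14.31 on the arrays labelled pregnant and 13.95 to 14.21 on those labelled virgin, so the labels of stage are not separated by these genes. Whether signals this high could still show a difference in milk protein mRNA was not tested. The mean of 10 luminal epithelial genes was between 10.95 and 12.31 on every array. Every member had a signal above 0 on every array, whereas Erg, an endothelial transcription factor, was listed at 0 on all 15 arrays. In bulk RNA such as this, fewer cells of a type and less RNA per cell cannot be told apart.

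Promoter sequence is shown because AzaC acts on methylation of cytosine in CG pairs. RefSeq held a window from 250 bases before to 50 after the start of transcription for 7 of the 9 genes on mouse build GRCm38.p6, all but Pecam1 and Cdh5, which are named only. Those of Cldn5 and Aqp1, the members that passed the test below, of Tie1, whose deviations from the group means followed those of the other members most closely, and of Kdr, which had the smallest change with AzaC in the pregnant label, are printed on the strand of the gene with each CG in capitals. Cldn5 lies at chr16:18776597-18776896 on the plus strand, Aqp1 at chr6:55336049-55336348 on the plus strand, Tie1 at chr4:118489800-118490099 on the minus strand and Kdr at chr5:75978406-75978705 on the minus strand.
Cldn5: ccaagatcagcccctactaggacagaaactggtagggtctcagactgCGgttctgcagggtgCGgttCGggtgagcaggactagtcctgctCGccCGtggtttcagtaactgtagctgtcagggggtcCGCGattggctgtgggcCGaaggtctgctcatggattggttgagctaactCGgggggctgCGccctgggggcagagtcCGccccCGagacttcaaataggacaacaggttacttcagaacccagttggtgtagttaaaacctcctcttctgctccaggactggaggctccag
Aqp1: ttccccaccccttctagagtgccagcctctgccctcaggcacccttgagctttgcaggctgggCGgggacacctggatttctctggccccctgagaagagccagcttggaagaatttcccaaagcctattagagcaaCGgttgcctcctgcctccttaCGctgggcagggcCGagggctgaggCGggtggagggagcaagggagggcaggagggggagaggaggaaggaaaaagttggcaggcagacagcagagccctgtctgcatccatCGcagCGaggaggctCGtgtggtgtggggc
Tie1: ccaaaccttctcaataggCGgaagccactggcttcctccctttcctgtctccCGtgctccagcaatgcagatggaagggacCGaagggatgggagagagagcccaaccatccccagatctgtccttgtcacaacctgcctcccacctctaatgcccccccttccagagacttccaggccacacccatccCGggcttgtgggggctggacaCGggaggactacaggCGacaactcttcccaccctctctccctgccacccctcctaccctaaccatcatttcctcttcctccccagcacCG
Kdr: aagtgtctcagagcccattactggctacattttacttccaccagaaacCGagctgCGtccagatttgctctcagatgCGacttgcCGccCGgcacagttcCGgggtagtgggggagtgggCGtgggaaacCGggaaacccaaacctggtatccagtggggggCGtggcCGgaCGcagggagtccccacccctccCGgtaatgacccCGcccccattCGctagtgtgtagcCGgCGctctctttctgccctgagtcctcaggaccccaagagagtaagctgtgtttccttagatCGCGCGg

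The windows differed widely in CG content. Cldn5 held 12 CG pairs, Aqp1 8, Tie1 7 and Kdr 19. Among the windows not printed, Flt1 held 29, Eng 6 and Tek 3. The median over 32851 RefSeq windows of the same length was 7, with quartiles of 3 and 20, so only Flt1 lay above the upper quartile. Cldn5 and Aqp1 lay inside the quartiles, and methylation of these windows was not measured here.

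Motifs were searched by their letters on both strands. A GC box followed by AA also holds the ETS core. The core bound by ETS factors, GGAA, was in 6 of the 7 windows, all but that of Cldn5, and in 96.0% of all windows. The GC box GGGCGG was in the windows of Cldn5, Aqp1, Kdr and Flt1, or 4 of 7, against 35.7% of all windows. The E-box CACGTG was in none of the 7, against 7.15% of all windows. A match of this kind is a description of the letters only.

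In mice labelled pregnant, 2 of the 9 endothelial genes, Cldn5 and Aqp1, rose with AzaC and none fell. Cldn5, the claudin that seals tight junctions between endothelial cells, was 3.48-fold higher, and Aqp1, a water channel of capillary endothelium, was 3.28-fold higher. The share of all 12393 genes that rose in this comparison was 3.76%, and 7.57% were called in either direction. All 9 members had a positive change, from 0.56 to 1.80 with a median of 1.14 (log2), while the median over all genes was 0.04 and 52.8% of genes had a positive change. The groups did not overlap and AzaC was higher for 7 of the 9 members, which holds for 23.5% of all genes. Calls are at an adjusted p under 0.05 in a limma fit over all genes.

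Cldn5 read 8.86, 9.22 and 8.96 (log2) on the AzaC arrays labelled pregnant, 9.14, 8.53 and 9.91 on the VPA arrays, and 6.89 and 7.54 on the PBS arrays. Each drug array was above both PBS arrays. The change was 1.80 ± 0.40 with AzaC (log2, SE; n = 3 against 2; adjusted p = 0.0258) and 1.98 ± 0.40 with VPA (n = 3 against 2; adjusted p = 0.0237).

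Aqp1 read 10.09, 10.92 and 11.15 on the AzaC arrays, 11, 10.54 and 10.64 on the VPA arrays, and 8.36 and 9.65 on the PBS arrays. The groups again stood apart, but the PBS arrays differed from each other by 1.29. The change was 1.71 ± 0.42 with AzaC (adjusted p = 0.0341) and 1.72 ± 0.42 with VPA (adjusted p = 0.0387).

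The adhesion molecules of the junction did not pass. Cdh5, or VE-cadherin, which forms the endothelial adherens junction, read 9.30, 9.67 and 10.17 with AzaC, 10.02, 9.15 and 9.44 with VPA, and 8.01 and 9.01 with PBS. Its groups did not overlap, and the change was 1.20 ± 0.35 with AzaC (adjusted p = 0.0599) and 1.03 ± 0.35 with VPA (adjusted p = 0.107). Pecam1, or CD31, an adhesion molecule at endothelial contacts that platelets and some leukocytes also carry, read 6.66, 8.05 and 8.14 with AzaC, 8.08, 7.25 and 6.61 with VPA, and 6.30 and 6.66 with PBS. One array of each drug lay at or below the higher PBS array, and the change was 1.14 ± 0.51 with AzaC (adjusted p = 0.184) and 0.83 ± 0.51 with VPA (adjusted p = 0.345).

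The angiopoietin receptors also missed the threshold. Tie1 read 6.67, 7.47 and 7.81 with AzaC, 7.83, 7.03 and 7.08 with VPA, and 5.20 and 6.55 with PBS. All drug arrays were higher than both PBS arrays, though the lowest AzaC array only just, and the change was 1.44 ± 0.46 with AzaC (adjusted p = 0.0763) and 1.44 ± 0.46 with VPA (adjusted p = 0.0864). Tek, the receptor that angiopoietins bind, read 7.09, 6.92 and 8.10 with AzaC, 7.52, 7 and 7.09 with VPA, and 5.93 and 6.70 with PBS. The groups did not overlap, and the change was 1.05 ± 0.41 with AzaC (adjusted p = 0.129) and 0.89 ± 0.41 with VPA (adjusted p = 0.203).

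The VEGF receptors had smaller changes. Flt1, which binds VEGF tightly and limits its action on Kdr, read 8.65, 8.35 and 9.15 with AzaC, 8.79, 8.06 and 8.75 with VPA, and 7.46 and 8.27 with PBS. The change was 0.85 ± 0.31 with AzaC, where groups stood apart (adjusted p = 0.110), and 0.67 ± 0.31 with VPA, where 1 array fell between the PBS arrays (adjusted p = 0.206). Kdr, the main signalling receptor for VEGF, read 9.83, 9.89 and 10.30 with AzaC, 10.26, 9.35 and 9.81 with VPA, and 8.89 and 10 with PBS. Its groups overlapped for both drugs, and the change was 0.56 ± 0.34 with AzaC (adjusted p = 0.320) and 0.36 ± 0.34 with VPA (adjusted p = 0.551).

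Eng, or endoglin, a co-receptor for ligands of the TGF-beta family on endothelial cells, read 9.49, 9.80 and 9.77 with AzaC, 9.79, 9.11 and 9.12 with VPA, and 8.93 and 9.20 with PBS. AzaC arrays were above both PBS arrays, whereas 2 VPA arrays lay between them. The change was 0.62 ± 0.25 with AzaC (adjusted p = 0.145) and 0.28 ± 0.25 with VPA (adjusted p = 0.543).

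**Figure D1:**
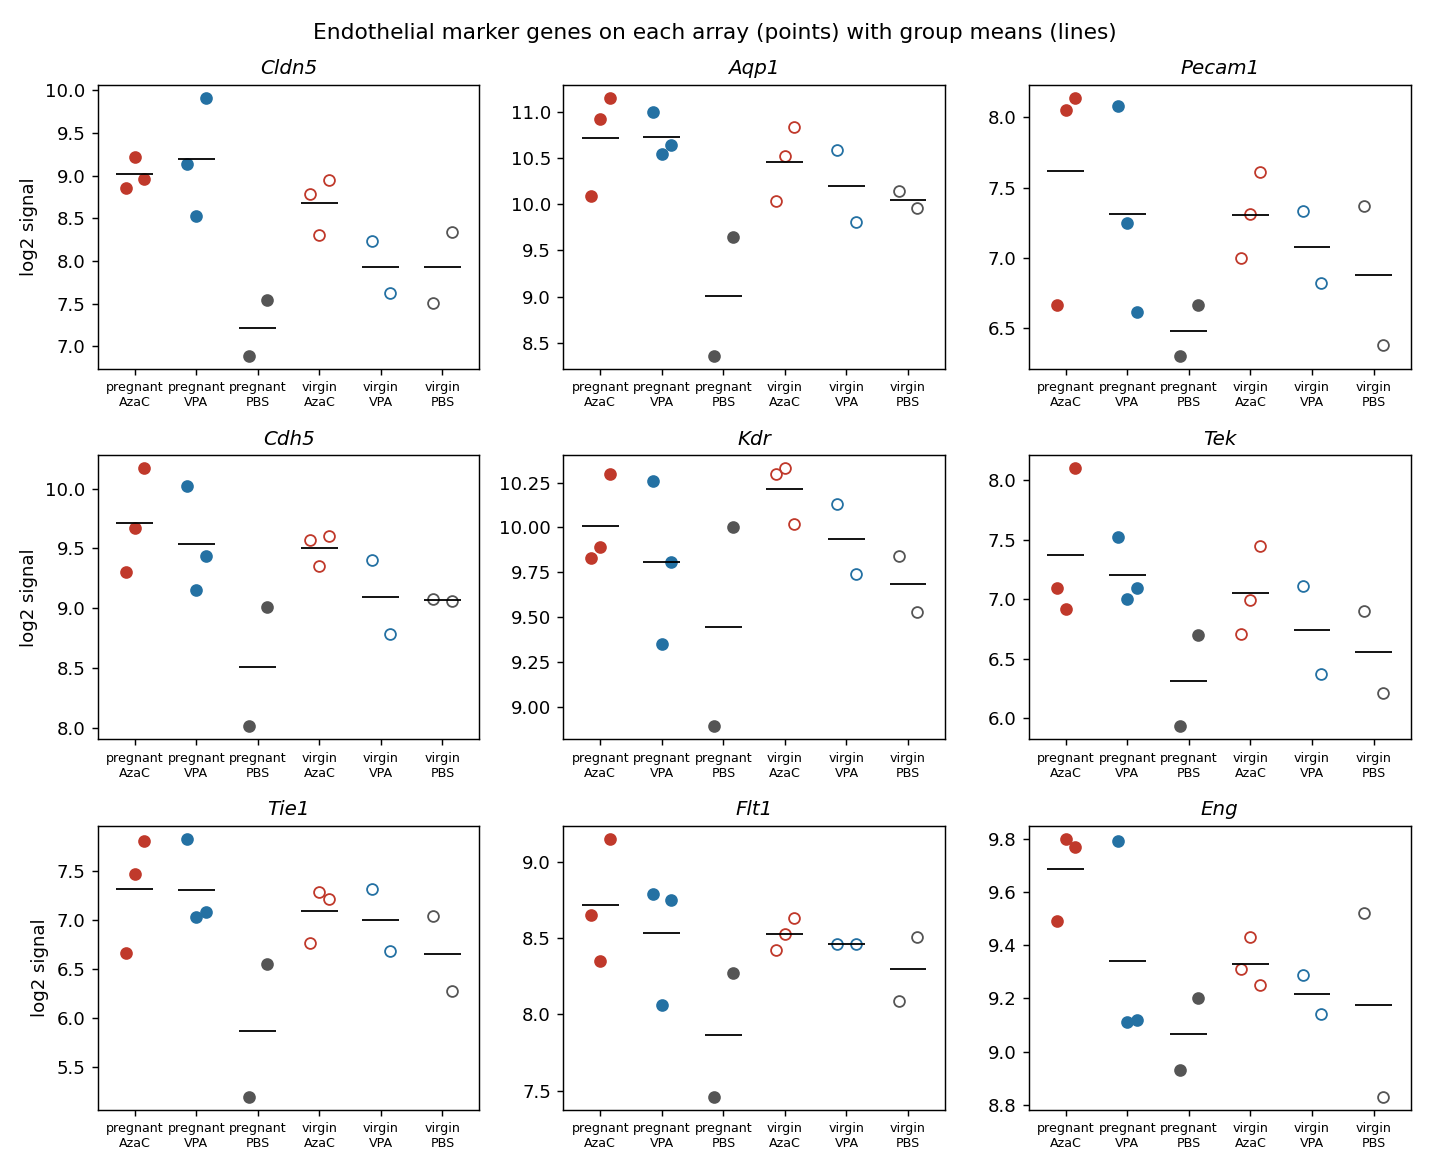
Signal (log2, vertical axes, each with its own range) of the 9 endothelial marker genes on each of 15 arrays by group, with AzaC in red, VPA in blue and PBS in grey, filled for pregnant and open for virgin labels, and horizontal lines for group means. The lowest point is a PBS array labelled pregnant for every gene but Eng, and Cldn5 and Aqp1 show the widest gap between drug and PBS arrays of that label.

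With VPA in mice labelled pregnant, 2 of 9 members rose, again Cldn5 (3.94-fold) and Aqp1 (3.30-fold), and none fell. The share of all genes that rose was 3.64%, and 5.98% were called in either direction, 451 up and 290 down. After quantile normalization between arrays these were 363 and 398, with the median of all genes at -0.05 and that of the members at 0.81 (log2). The 9 changes ran from 0.28 to 1.98 with a median of 0.89 (log2), against a median of 0.06 over all genes. VPA was higher with no overlap for 5 members, which holds for 25.7% of all genes. The AzaC and VPA comparisons share their 2 PBS arrays, so that the 2 sets of changes are not separate observations.

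The 2 PBS arrays labelled pregnant did not give the same values for these genes. Replicate 1 was the lowest of all 15 arrays for 8 of the 9 members, all but Eng. Averaged over the members, each centred on its mean over 15 arrays, replicate 1 stood at -1.20 and replicate 2 at -0.35 (log2), while the other 13 arrays ran from -0.41 to 0.75. Over all genes the 2 arrays correlated at r = 0.972, and the median correlation of replicate 1 with the other arrays was 0.962, within the 0.947 to 0.966 of all arrays. Replicate 1 was therefore low for these genes without standing apart over the whole array.

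The size of the change depended on that array. Without PBS replicate 1 the median change of the 9 members was 0.70 with AzaC and 0.53 with VPA (log2), and none was called. Cldn5 was then 1.47 with AzaC (adjusted p = 0.180) and 1.65 with VPA (adjusted p = 0.152), and Aqp1 was 1.07 (adjusted p = 0.262) and 1.08 (adjusted p = 0.272). Kdr was 0.01 with AzaC and -0.19 with VPA, so its positive change rested on PBS replicate 1. Without PBS replicate 2 the medians were 1.44 and 1.27, and again none was called, with lowest adjusted p-values of 0.0649 and 0.0778. Each of these fits has a single PBS array of that label, assumed to vary like the other groups. Drug arrays mattered too: Aqp1 alone was called without AzaC replicate 1, Cldn5 alone without AzaC replicate 2 or VPA replicate 2, and no member without AzaC replicate 3, VPA replicate 1 or VPA replicate 3 of that label.

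**Figure D2:**
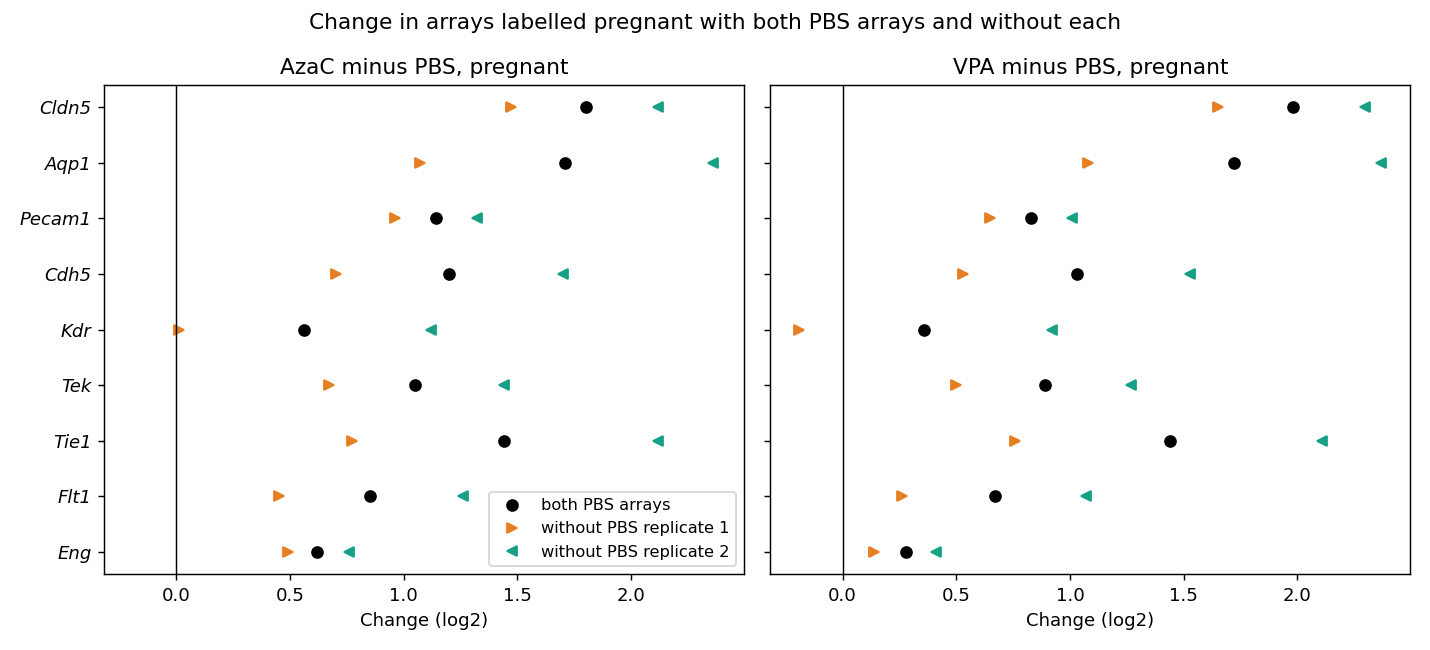
Change (log2, horizontal axis) of each endothelial gene with AzaC (left) and VPA (right) in mice labelled pregnant, from both PBS arrays (circles) and without PBS replicate 1 or 2 (triangles). Removing replicate 1 shifts every gene towards 0, with Kdr at 0.01 for AzaC and -0.19 for VPA, while Cldn5 stays at 1.47 or more.

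The calls also depended on the arrays that set the error. In a fit of the 8 arrays labelled pregnant only, added after the data were seen, the changes were the same, but no member passed with AzaC (Cldn5 adjusted p = 0.0505, Aqp1 adjusted p = 0.0720) and only Cldn5 passed with VPA. In a fit of only the arrays compared no member passed with either drug, with adjusted p-values for Cldn5 of 0.0678 with AzaC and 0.0944 with VPA, and for Aqp1 of 0.143 and 0.101. With a measure of RNA quality, the 3' minus 5' difference of the Gapdh control probe sets, as a covariate, 5 members rose with AzaC, adding Pecam1, Tie1 and Eng. In the pregnant label that difference ran from -0.12 to 0.85 with AzaC and from -0.17 to 0.82 with VPA. With PBS in that label it ran from 0.09 to 0.47. The correlation of this difference with the members' mean centred level over 15 arrays was -0.241.

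In mice labelled virgin no member was called with either drug. With AzaC the changes ran from 0.16 to 0.76 with a median of 0.43 (log2), with adjusted p-values from 0.714 to 0.910. With VPA they ran from 0.01 to 0.35 with a median of 0.16, with adjusted p-values from 0.915 to 1. The background was equally low: with AzaC 0% of all genes were called, although 849 had an unadjusted p under 0.05, and with VPA 0.00807%, or 1 gene. None of the 9 members had an unadjusted p under 0.05 in either comparison.

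Cldn5 had the largest of these changes. It read 8.78, 8.31 and 8.95 on AzaC arrays, 8.24 and 7.63 on VPA arrays, and 7.51 and 8.34 on PBS arrays labelled virgin. One AzaC array lay below the higher PBS array, and the change was 0.76 with AzaC (95% interval -0.12 to 1.63) and 0.01 with VPA (-0.95 to 0.97).

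Aqp1 read 10.03, 10.52 and 10.83 with AzaC, 10.59 and 9.81 with VPA, and 10.14 and 9.96 with PBS. The groups overlapped, and the change was 0.41 with AzaC (-0.51 to 1.33) and 0.15 with VPA (-0.86 to 1.16). Cdh5 and Kdr were the 2 members whose AzaC and PBS arrays did not overlap in this label, against 11.5% of all genes apart and higher. Cdh5 read 9.57, 9.35 and 9.60 with AzaC, 9.40 and 8.78 with VPA, and 9.08 and 9.06 with PBS.

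Kdr read 10.30, 10.33 and 10.02 with AzaC, 10.13 and 9.74 with VPA, and 9.84 and 9.53 with PBS. For VPA no member stood apart from PBS in this label, against 20.8% of all genes apart and higher and 15% apart and lower. Pecam1, Tek, Tie1, Flt1 and Eng had changes of 0.16 to 0.50 with AzaC and of 0.04 to 0.35 with VPA, and all overlapped with PBS.

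**Figure D3:**
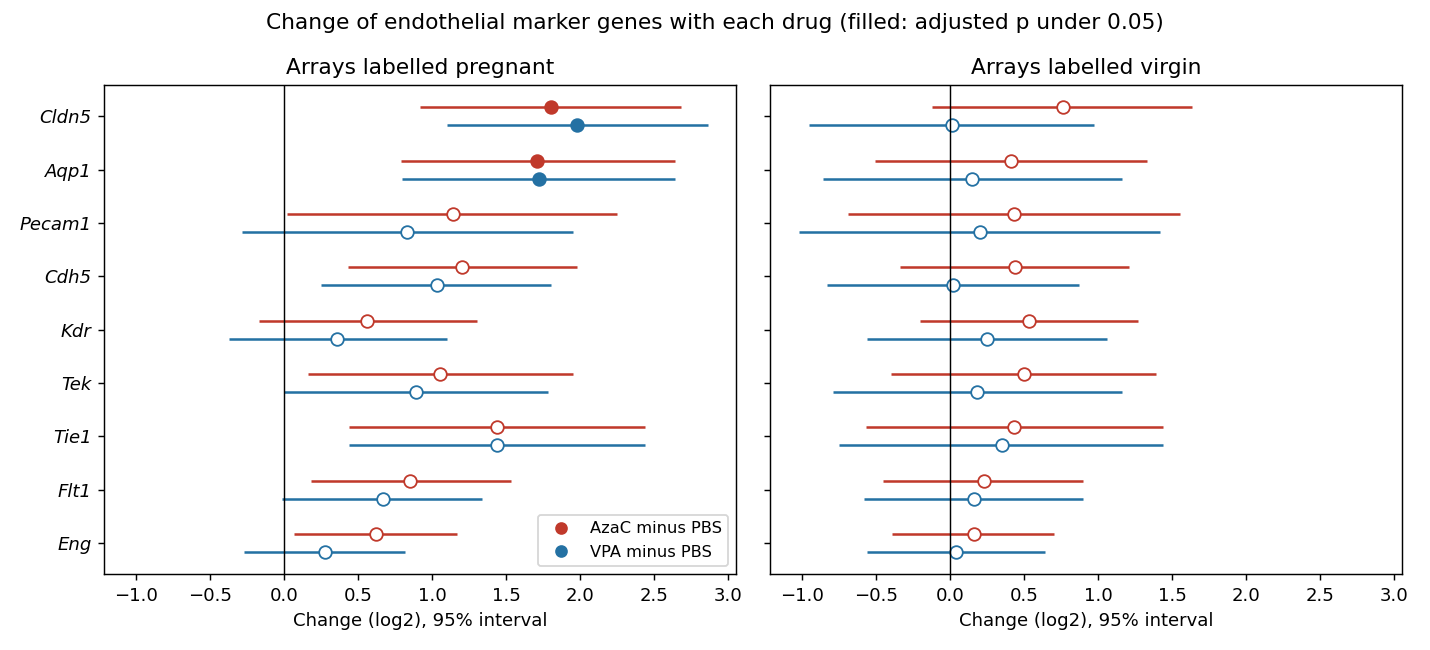
Change (log2, horizontal axis) with its 95% interval for each endothelial gene, AzaC minus PBS in red and VPA minus PBS in blue, for arrays labelled pregnant (left) and virgin (right). Filled points passed an adjusted p of 0.05 and are Cldn5 and Aqp1 on the left, while every interval on the right includes 0.

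Whether the drug effect differed by stage label was tested as an interaction, and no member passed. For AzaC the effect was larger in the pregnant label for all 9 members, with a median difference of 0.70 (log2) and 0 over all genes, and 0% of all genes were called, with 1587 at an unadjusted p under 0.05. The largest was Aqp1, at 1.30 ± 0.59 (adjusted p = 0.390). For VPA the median difference was 0.70 and 0.315% of all genes were called. Cldn5 had 1.97 ± 0.59 (adjusted p = 0.120) and Aqp1 1.57 ± 0.62 (adjusted p = 0.211), while Kdr had 0.11 ± 0.50. So the calls in one label and their lack in the other do not show that the effect differed. Both sets of differences use the 2 PBS arrays labelled pregnant. Without replicate 1, Kdr changed by 0.01 in the pregnant label against 0.53 in the virgin label with AzaC, and by -0.19 against 0.25 with VPA. Every other member kept the larger change in the pregnant label. The medians of the 9 were then 0.70 against 0.43 with AzaC and 0.53 against 0.16 with VPA.

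Between the stage labels no member was called under any injection. With AzaC the pregnant label was higher for 8 of 9 members, by a median of 0.26 (log2), and 1.23% of all genes were called. With VPA it was higher for 8 of 9, by a median of 0.31, and 6.66% of all genes were called, 458 up and 367 down, or 396 and 483 after quantile normalization. Cldn5 was nearest to the threshold there, at 1.26 ± 0.40 (adjusted p = 0.0797), with the groups apart. Kdr was the exception under both drugs, at -0.21 with AzaC and -0.13 with VPA.

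Under PBS the direction was the other way, with all 9 changes negative from -1.04 to -0.11 and a median of -0.43, every adjusted p at 1, and 0.00807% of all genes called. Aqp1 read 8.36 and 9.65 in the pregnant label and 10.14 and 9.96 in the virgin label, a change of -1.04 ± 0.46. Cdh5 also had no overlap there, at 8.01 and 9.01 against 9.08 and 9.06, and 13.4% of all genes were apart and lower. The uniform direction rested on PBS replicate 1 of the pregnant label. Replicate 2 was above the virgin PBS mean for Kdr (10 against 9.68), Tek (6.70 against 6.56) and Eng (9.20 against 9.18). It was below that mean for every other member.

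AzaC and VPA were compared directly as well, and no member was called under either label. In the pregnant label the differences ran from -0.18 for Cldn5 to 0.35 for Eng, with a median of 0.18 (log2), and 0% of all genes were called, with 468 at an unadjusted p under 0.05. The 95% interval was -0.97 to 0.61 for Cldn5 and -0.83 to 0.82 for Aqp1, so both intervals hold differences in either direction. In the virgin label AzaC was above VPA for all 9, from 0.07 to 0.75 with a median of 0.26, and 0% of all genes were called, with 813 at an unadjusted p under 0.05. Cldn5 had the largest difference, 0.75 (-0.13 to 1.62), with groups apart.

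Ordered by mean, 6 genes had the same series of groups. For Pecam1, Cdh5, Tek, Tie1, Flt1 and Eng it was, from the highest, pregnant AzaC, pregnant VPA, virgin AzaC, virgin VPA, virgin PBS and pregnant PBS. Cldn5 and Aqp1 had pregnant VPA above pregnant AzaC, and Kdr had virgin AzaC first. The pregnant PBS group was the lowest for all 9, and its replicate 1 was the lowest array for 8 of them. Most neighbours in this order overlapped. The exceptions were virgin AzaC and virgin VPA for Cldn5, and virgin PBS and pregnant PBS for Aqp1 and Cdh5.

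The spread over 15 arrays differed between genes, from 6.89 to 9.91 for Cldn5 and from 8.36 to 11.15 for Aqp1 down to 8.83 to 9.80 for Eng. The highest array was AzaC replicate 3 of the pregnant label for 5 genes, namely Aqp1, Pecam1, Cdh5, Tek and Flt1. It was AzaC replicate 2 of that label for Eng, VPA replicate 1 for Tie1 and VPA replicate 3 for Cldn5, and AzaC replicate 2 of the virgin label for Kdr.

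The members varied together from array to array. Over the 36 pairs of members, Pearson r over 15 arrays was positive in all, from 0.408 to 0.961 with a median of 0.757. These points share the arrays, their normalization and the groups. After subtracting each group's mean, r was positive in 34 pairs, from -0.168 to 0.928 with a median of 0.642. Without PBS replicate 1 of the pregnant label the median over 14 arrays was 0.633. Aqp1 and Tie1 were the closest pair, at 0.961 and, for deviations, 0.928.

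Cldn5, which had the largest change with each drug in the pregnant label, followed the others least. The median r of its deviations with those of the other 8 genes was 0.238, against 0.815 for Tie1 and 0.748 for Cdh5. The pairs of Cldn5 with Pecam1 and Eng were the 2 with a negative r of deviations.

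**Figure D4:**
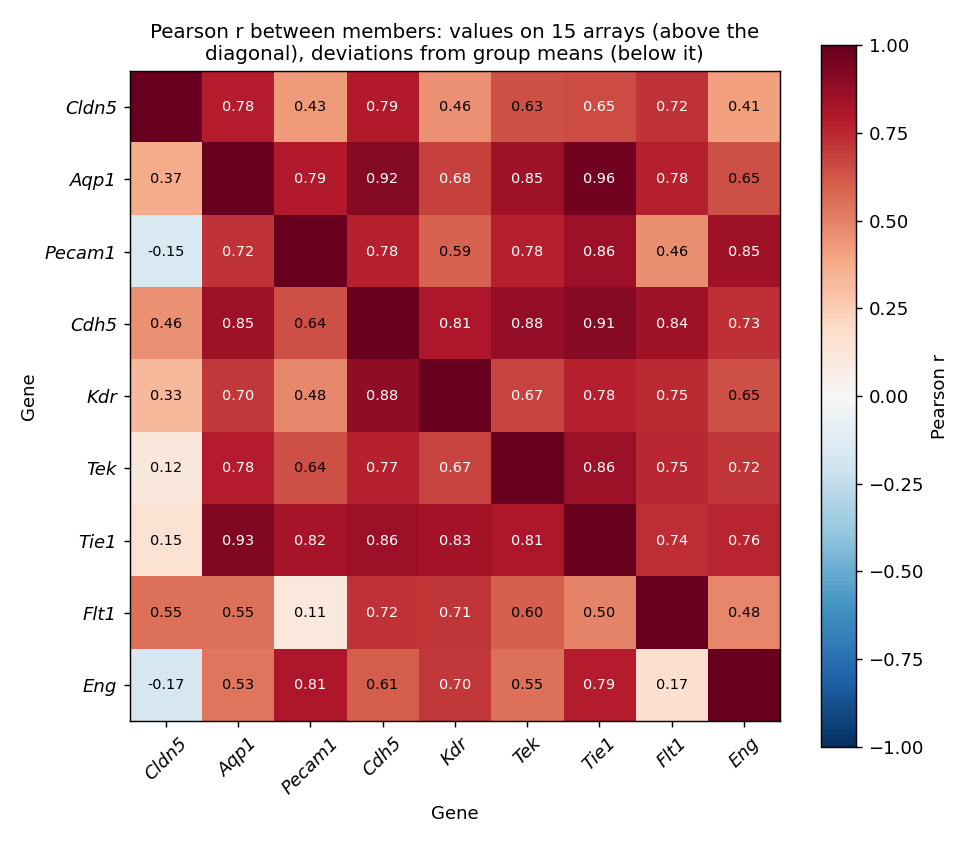
Pearson r between the endothelial genes, from values on 15 arrays above the diagonal and from deviations from group means below it, on a colour scale from -1 to 1. Tie1 and Aqp1 are close to most of the others, and below the diagonal the Cldn5 column holds the only negative values.

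A second probe set did not follow the first closely for the genes that had more than one. The second of Cdh5 had r = 0.474 with the one used, that of Eng 0.221, and the 2 of Flt1 0.417 and -0.0559, over 15 arrays. In a fit of all 20380 probe sets with one symbol, 2 of the 13 member probe sets were called with each drug in the pregnant label, again those of Cldn5 and Aqp1. The share called was 6.28% with AzaC and 4.36% with VPA. Of the 13, 12 had a positive change in each of these comparisons.

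Of the 30 further endothelial genes listed, none of them a member, 25 were measured. Their mean followed the members closely, with r = 0.962 over 15 arrays and 0.975 for deviations from group means. It ran from 7.58 to 7.95 with AzaC, from 7.51 to 7.86 with VPA and from 6.94 to 7.43 with PBS in the pregnant label. With AzaC 1 rose, 1 fell and the median change was 0.70 (log2), and with VPA 1 rose, 1 fell and the median was 0.55. The shares of all genes called in either direction were 7.57% and 5.98%. Erg, listed at 0 on all 15 arrays, is among the 25. In the virgin label none was called.

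Sele, or E-selectin, which activated endothelium uses to catch leukocytes, rose by 1.93 ± 0.37 with AzaC (adjusted p = 0.0171) and by 1.60 ± 0.37 with VPA (adjusted p = 0.0338). Apln, or apelin, a peptide made by endothelial tip cells and by other cells, went the other way. It averaged 8.34 ± 1.09 with AzaC and 8.63 ± 0.86 with VPA (SD, n = 3 each), against 11.13 ± 0.55 with PBS (n = 2), so that the change was -2.79 ± 0.59 with AzaC (adjusted p = 0.0225) and -2.50 ± 0.59 with VPA (adjusted p = 0.0360).

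**Figure D5:**
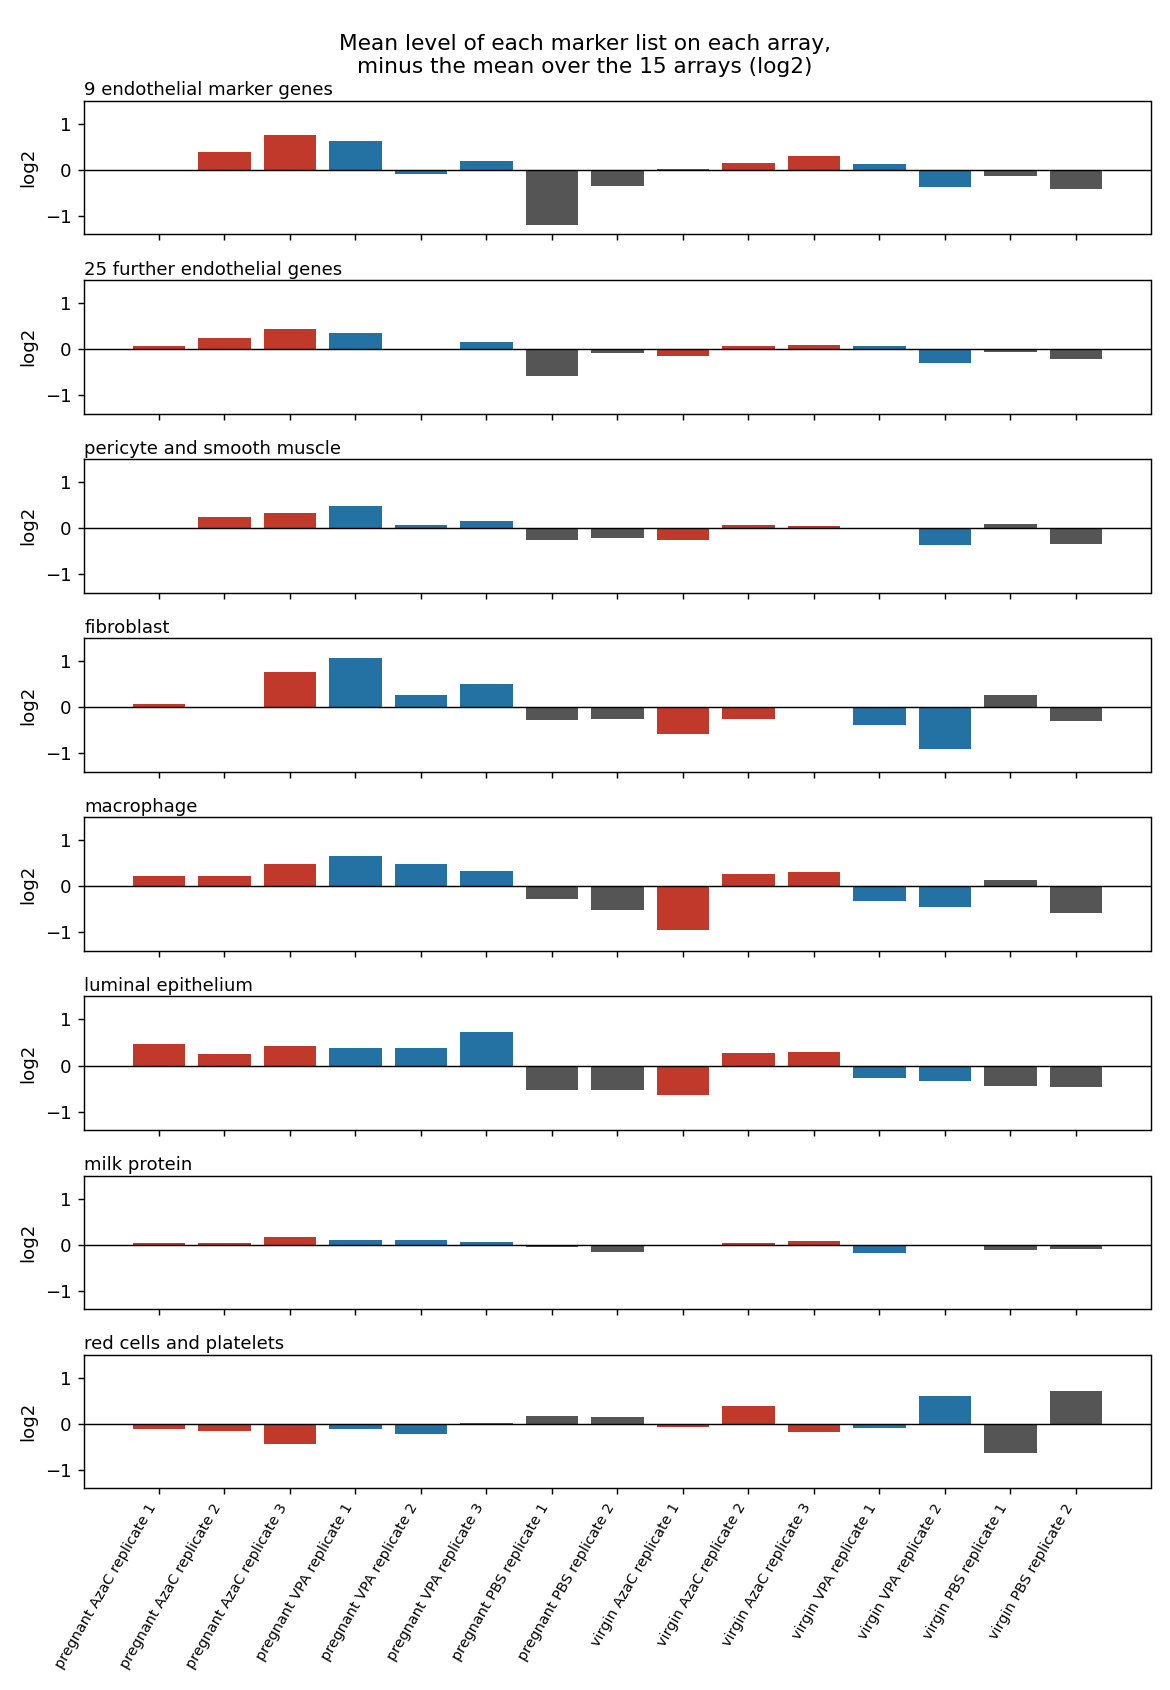
Mean level of 8 marker lists on each of 15 arrays, minus that list's mean over the arrays (log2), with AzaC in red, VPA in blue and PBS in grey. The 25 further endothelial genes follow the 9 members array by array, while luminal epithelial, macrophage and fibroblast genes are also below their mean on both PBS arrays labelled pregnant.

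Markers of some other cell types were also higher with the drugs in the pregnant label, and their part in the result was not tested. In the pregnant label 10 luminal epithelial genes averaged 11.85 to 12.07 with AzaC, 11.97 to 12.31 with VPA and 11.06 to 11.07 with PBS. Their median changes were 0.97 with AzaC and 1.12 with VPA. The shares of all genes that rose were 3.76% and 3.64%. Among the 10 luminal genes 1 rose with AzaC and 3 with VPA. These were Ehf, an epithelial ETS factor, which rose by 0.97 ± 0.25 with AzaC (adjusted p = 0.0386) and by 1.21 ± 0.25 with VPA (adjusted p = 0.0246), and, with VPA, Cldn4 and Cdh1, or E-cadherin. The 11 macrophage genes averaged 9.02 to 9.28 with AzaC, 9.13 to 9.47 with VPA and 8.28 to 8.52 with PBS, and none was called. Their median changes were 0.71 with AzaC and 1.10 with VPA, with 10 of 11 positive for each drug. The 13 fibroblast genes averaged 9.50 to 10.26 with AzaC, 9.77 to 10.57 with VPA and 9.22 to 9.24 with PBS. Among them 1, the proteoglycan Dcn, rose with VPA, by 1.37 ± 0.36 (adjusted p = 0.0499). The Dcn call did not hold with quantile normalization, the mean of all probe sets or the probe set of highest variance. Nor did it hold with a floor at 5 or in the fit across all probe sets. All 13 fibroblast changes were positive with each drug, with medians of 0.49 and 0.93. The medians of the 9 members were 1.14 with AzaC and 0.89 with VPA. With VPA the luminal, macrophage and fibroblast medians were thus above that of the members, and with AzaC they were below it. The 8 basal and myoepithelial genes had medians of -0.10 with AzaC, with 3 of 8 positive, and 0.09 with VPA, with 5 of 8 positive. In the virgin label the changes of all 9 members were positive, from 0.16 to 0.76 with AzaC and from 0.01 to 0.35 with VPA. Of all 13 member probe sets, 11 were positive with AzaC and 10 with VPA. Virgin PBS replicate 2 had the highest Gapdh difference of all arrays, 1.23. Against virgin PBS replicate 1 alone, the VPA means of Pecam1, Tek, Tie1 and Eng were lower, as were the AzaC means of Pecam1 and Eng. Every other member mean was higher. In the virgin label 1 of 13 fibroblast changes was positive with AzaC and 0 of 13 with VPA, with medians of -0.25 and -0.58. The macrophage medians there were 0.10 and -0.13, and the luminal medians 0.36 and 0.18. No marker of the luminal, macrophage and fibroblast lists was listed at 0 on all arrays of a group.

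Over 15 arrays the members' mean centred level had r = 0.794 with 12 pericyte and smooth muscle genes, 0.658 with luminal epithelial, 0.600 with fibroblast and 0.588 with macrophage genes. For deviations from group means these were 0.751, 0.123, 0.753 and 0.308. Luminal genes therefore shared group means with the members but little of the spread within groups. Red cell and platelet genes had r = -0.470 and milk protein genes 0.571. In the red cell and platelet list Gp9 was listed at 0 on 7 arrays, Hba-a1 on 2 and Epb42 on 1. The milk protein genes spanned only 13.41 to 14.48 (log2) over all arrays. Mcam, found on pericytes and on endothelium, rose by 1.36 ± 0.36 with AzaC in the pregnant label (adjusted p = 0.0427). It was the only one of the 12 pericyte and smooth muscle genes called there, against 3.76% of all genes that rose. Of the 12 changes 8 were positive with AzaC, with a median of 0.49 and a lowest of -0.75. With VPA 10 were positive, with a median of 0.43, and 0 were called.

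The ligands of the receptors did not pass in any drug comparison. Vegfa, the main ligand of Kdr, averaged 9.71 ± 0.64 with AzaC and 9.62 ± 0.13 with VPA (SD, n = 3 each), against 9.86 ± 0.12 with PBS (n = 2) in the pregnant label. Its change was -0.14 with AzaC and -0.24 with VPA. Pgf, a ligand of Flt1, had -0.15 and 0.02. Angpt1, which activates Tek, had -0.53 (adjusted p = 0.173) and -0.42 (adjusted p = 0.290), and Angpt2, which mostly opposes it, had 0.30 and 0.19.

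Of the 15 measured VEGF and angiopoietin pathway genes, 1 rose with AzaC, namely Vegfd, which acts mainly on lymphatic vessels, by 0.58 ± 0.16 (adjusted p = 0.0499), and none with VPA. That call did not hold with the probe set of highest variance (change 0.03, adjusted p = 0.965), the mean of all probe sets (0.37, adjusted p = 0.239), quantile normalization (adjusted p = 0.0586) or trend and robust eBayes (adjusted p = 0.0772). The medians of the list were 0.13 and 0.02, and the shares of all genes that rose were 3.76% and 3.64%.

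Of 16 genes of BMP and TGF-beta signalling, partners of endoglin, 2 rose with each drug and none fell, with medians of 0.53 and 0.58. Over all genes 3.76% rose with AzaC and 3.64% with VPA. Smad1, which carries the BMP signal to the nucleus, rose by 1.51 ± 0.29 with AzaC (adjusted p = 0.0165) and by 1.44 ± 0.29 with VPA (adjusted p = 0.0228). Smad4, its common partner, rose by 1.19 ± 0.27 (adjusted p = 0.0282) and by 1.08 ± 0.27 (adjusted p = 0.0430). These genes act in many cell types besides endothelium. With the probe set of highest variance for each gene, Smad1 and Smad4 were not called with either drug.

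Of 22 endothelial transcription factors, 3 rose with AzaC and 2 with VPA, with medians of 0.58 and 0.44. For this list and the junction partners below, the shares of all genes that rose were 3.76% and 3.64%. The 22 include Erg, listed at 0 on all 15 arrays, and Foxc2, at 0 on 3 arrays and at most 2.59. Klf4 rose by 1.33 ± 0.25 (adjusted p = 0.0159) and by 1.19 ± 0.25 (adjusted p = 0.0251), Ets2 rose by 1.31 ± 0.32 (adjusted p = 0.0342) and by 1.25 ± 0.32 (adjusted p = 0.0452), and Elk3 passed with AzaC and not with VPA. Epithelial cells express Klf4 and Ets2 too. Of 10 junction partners, Tjp1 and Ctnna1, which link tight and adherens junctions to the cytoskeleton, rose with each drug, Tjp1 by 1.21 ± 0.25 and 1.10 ± 0.25 and Ctnna1 by 1.13 ± 0.29 and 1.21 ± 0.29 with AzaC and VPA.

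Among 13 other claudins, Cldn23 rose by 1.65 ± 0.34 with AzaC (adjusted p = 0.0199) and by 1.91 ± 0.34 with VPA (adjusted p = 0.0160). Cldn4, a claudin of epithelium, rose by 2.66 ± 0.69 with VPA (adjusted p = 0.0472). The median over the 13 was -0.05 with AzaC and 0.11 with VPA, and the shares of all genes that rose were 3.76% and 3.64%. None of 8 other aquaporins was called, with medians of 0.03 and 0.13. In the virgin label none of the genes of these lists was called with either drug.

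Outside the members, the 5 genes whose level over 15 arrays was most like their mean centred level were Elk3 (r = 0.938), Meox2 (0.912), Pde2a (0.897), Sparc (0.890) and Sox18 (0.879). They were ranked among 9284 genes with a median r of 0.104. All 5 were lowest on PBS replicate 1 of the pregnant label, as were 8 of the members. The members' mean centred level, by which the 5 were picked, was also lowest on that array, at -1.20. Being lowest there, and higher with the drugs than with PBS in that label, therefore follows in part from the choice. Elk3, an ETS factor, rose by 1.42 ± 0.34 with AzaC (adjusted p = 0.0317) and had 1.23 ± 0.34 with VPA (adjusted p = 0.0572). Meox2, a homeobox gene, rose by 1.38 ± 0.37 with AzaC (adjusted p = 0.0459). Pde2a, Sparc and Sox18 did not pass with either drug. Calls outside the members depended on the choice of probe set and arrays. With the probe set of highest variance, 5 of 14 were still called with AzaC, namely Apln, Cldn23, Elk3, Sele and Tjp1. With VPA 3 of 13 were, namely Cldn23, Sele and Tjp1. In a fit of only the arrays compared, 0 of 14 were called with AzaC and 7 of 13 with VPA. Without PBS replicate 1 or without PBS replicate 2 of the pregnant label, none of the 14 genes outside the members named here as called with AzaC, nor any of the 13 with VPA, passed, and all kept their sign.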

How the data were processed

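The deposited table holds the authors' processed log2 signals of 22690 probe sets on 15 arrays. The log base was inferred from the range of the values, and the background correction, normalization and summarization are not given in the sources used here. Array medians lay between 7.22 and 7.47, and values were used as deposited. Probe sets were named from the platform annotation: 20380 had a single symbol, 691 several and 1619 none or were controls. Each of 12393 genes was represented by its probe set with the highest mean.

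With limma 3.58.1 (R 4.3.3; lmFit, then eBayes), the 15 arrays were modelled by 6 group means, leaving 9 residual and 2.31 prior degrees of freedom, and 11 contrasts were tested two-sided. Benjamini-Hochberg adjusted p-values over the 12393 genes were called under 0.05. The script was tested on simulated data. Members' mean centred level is the mean over members of each gene minus its mean over 15 arrays. Correlations are descriptions. Sequences are from RefSeq for GRCm38.p6. Figures used matplotlib 3.10.9.

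The members and lists were chosen with earlier results of these data known. Named genes were the members, up to 3 called genes of each list with the largest change in each drug comparison, Vegfa, Pgf, Angpt1 and Angpt2, and the 5 genes most like the members with a mean above the lower quartile of gene means, 5.59. The lists covered the VEGF and angiopoietin pathway, partners of endoglin, endothelial transcription factors, junction partners, other claudins and aquaporins, and markers of endothelium, lymphatic vessels, pericytes, fibroblasts, adipocytes, macrophages, other leukocytes, red cells, luminal and basal epithelium, milk protein and muscle. Alternatives were quantile normalization, a filter on dim genes, other choices of probe set, other eBayes settings, subsets of arrays, the replicate number as a block, a floor at 5, a covariate for RNA quality and leaving out each array.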

Additional observations from a re-analysis of the deposited data

How the results depend on the processing

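Only 2 or 3 arrays per group and unstated normalization limit these results, and background correction could not be varied from processed values. No change reversed among called genes. Endothelial genes called with AzaC in the pregnant label, 2 in the report, were 4 without genes under the lower quartile, 4 with trend and robust eBayes, 5 with the Gapdh covariate and 0 with only the arrays compared, with only arrays of that stage label, or with the replicate block. With VPA, 2 in the report, they were 3 without genes under the lower quartile, 1 with the probe set of highest variance, 1 with arrays of that stage label, and 0 with only the arrays compared or the replicate block. Leaving out an array gave 0 to 1 for both. Between the labels with VPA, 0 in the report, it was 1 without dim genes and 1 with trend and robust eBayes, Cldn5 each time. The other 8 member counts stayed at 0. The uncalled change of Eng with VPA, 0.28 in the report, was -0.04 with the probe set of highest variance. The labels do not say whether replicate numbers pair arrays. The correlation of deviations of same-numbered arrays ran from -0.174 to 0.333 over 33 pairs, which does not settle whether they share a batch. In groups of 2 arrays the deviations mirror each other, so these pairs are not all separate. The cause of these shifts was not tested.

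Counts over all genes moved more. With AzaC in the pregnant label (938) they were 1445 without dim genes, 557 with the probe set of highest variance, 0 with only the arrays compared, 466 with the replicate block and 1623 with the Gapdh covariate, and 14 to 1335 leaving out an array. With VPA (741) the same settings gave 1181, 373, 364, 241 and 1233, and 20 to 231. With AzaC in the virgin label (0) the floor gave 4, and leaving out an array 0 to 33. With VPA there (1), quantile normalization gave 2, the probe set of highest variance 3, the floor 5, and 0 came from the dim filter, trend and robust eBayes, only the arrays compared, arrays of that label and the replicate block, with 0 to 39. Pregnant minus virgin with AzaC (152) gave 4 with quantile normalization, 311 without dim genes, 0 with the highest variance, 271 with trend and robust eBayes, 2 with only the arrays compared, 64 with the replicate block, 258 with the floor, 359 with Gapdh and 0 to 501. With VPA (825) it gave 1289 without dim genes, 495 with the highest variance, 421 with only the arrays compared, 239 with the replicate block, 1318 with Gapdh and 4 to 258. With PBS (1) it gave 0 without dim genes, with trend and robust eBayes, with only the arrays compared and with the replicate block, 4 with the floor, 2 with Gapdh and 1 to 22. AzaC minus VPA (0 in both labels) gave 1 with arrays of the pregnant label and 0 to 2, and in the virgin label 1 with only the arrays compared, 2 with the floor, 1 with Gapdh and 0 to 17. The AzaC interaction (0) gave 1 with only the arrays compared, 49 with the floor and 0 to 42. The VPA interaction (39) gave 267 without dim genes, 7 with the highest variance, 242 with trend and robust eBayes, 84 with only the arrays compared, 0 with the replicate block, 147 with the floor, 83 with Gapdh and 0 to 80.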

Other observations

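Skeletal muscle genes, which no comparison above uses, were detected on all arrays of these epithelial preparations. The mean of 6 such genes ran from 11.06 to 12.82 (log2) with AzaC, from 12.47 to 12.74 with VPA and from 10.86 to 12.15 with PBS in the pregnant label. In the virgin label it ran from 10.20 to 12.32 with AzaC, from 11.72 to 12.32 with VPA and from 10.92 to 12.10 with PBS. None of the 6 was called in a drug comparison, although all 6 changes were positive with each drug in the pregnant label, with medians of 0.64 and 1.19. Their mean had r = 0.333 with the endothelial genes over 15 arrays.

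Adipocyte genes went in opposite directions in the 2 labels without any call. Of 8 measured, 7 had a positive change with each drug in the pregnant label, with medians of 0.50 for AzaC and 0.56 for VPA, and none was positive in the virgin label, where the medians were -0.48 and -0.67. Their mean level had r = 0.134 with that of the endothelial genes over 15 arrays. The 6 lymphatic endothelial genes had medians of 0.29 with AzaC and 0.08 with VPA in the pregnant label and 0.07 and -0.04 in the virgin label, with none called.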
